A study of Rattus norvegicus with 89 samples.

Results

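The comparison described here sets kidneys of rats given saline for 5 days beside kidneys of naive rats, across all genes measured. Samples were chosen by their titles, which put 5 rats in the saline day 5 group (2 females, 3 males) and 6 in the naive group (3 females, 3 males), out of 89 rats in the series. Every animal was an outbred Sprague-Dawley Crl:CD(SD) rat, bought at about 7 to 8 weeks of age, housed singly and acclimated for 6 days. The saline rats received saline daily as a control treatment, whose route and volume the labels do not state. The naive rats were left untreated. In every rat, apical pieces of the right and left kidney were homogenized together, so each array is 1 rat and its RNA comes from a mixture of kidney cell types. The series otherwise holds 7 saline rats of day 1 and 71 rats given 1 of 6 compounds, which serve here only to set levels in context. For saline rat 1M4 the treatment text is empty and the title alone gives the group.

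A saline group is the usual control for a dosed compound, and naive rats add a control for dosing and handling. Repeated handling can raise glucocorticoids and sympathetic tone, which act in the kidney on immediate early genes, on Fkbp5, Tsc22d3 and Sgk1, and on clock genes such as Per1. Salt and water balance acts on angiotensin, sodium channels and the vasopressin-controlled water channel Aqp2 of the collecting duct. These gene groups are described below with markers of tubule segments, injury, inflammation and admixed tissue. Values are scaled array signals in arbitrary units, and differences are saline minus naive of log2(signal + 16).

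The arrays carried kidney RNA in both groups. Summed signals of the proximal tubule markers Slc34a1, Lrp2, Slc22a6 and Slc5a2 were 11178 to 17559 in saline rats and 13308 to 16272 in naive rats. Loop of Henle markers Umod and Slc12a1 summed to 9037 to 13264 in saline rats and 9742 to 11419 in naive rats. The collecting duct markers Aqp2 and Scnn1b summed to 2623 to 4796 in saline rats and 2366 to 3466 in naive rats. Of the 4 defining markers of adrenal cortex and the 2 of skeletal muscle, each lay under a scaled signal of 33.2, the limit used here for dim genes, in all 11 rats.

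Saline female 1F106 and saline male 1M5 stood apart from the other rats. The GAPDH 3′ over 5′ log2 ratio, which grows as RNA shortens, was 1.58 in 1F106, the highest of all 89 arrays, against 0.257 to 0.588 in the other saline rats and 0.187 to 0.471 in naive rats. Its median rank correlation with rats of its sex was 0.952, against 0.976 to 0.984 for the other 10 rats, and 29 genes lay more than 1 log2 unit above all other females and 130 below them. Between groups, the GAPDH ratio averaged 0.647 ± 0.541 in saline rats and 0.319 ± 0.119 in naive rats (SD, n = 5 and 6; exact two-sided permutation test over 462 arrangements, p = 0.0887). Brightness before scaling averaged 172 ± 37.1 in saline rats and 165 ± 21.7 in naive rats (SD, n = 5 and 6; exact permutation p = 0.797).

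Rat 1M5 carried liver transcripts. Alb, which encodes serum albumin, had a signal of 1855 in 1M5, against 5.89 to 89.9 in the other 10 rats. Serpina1, the antitrypsin gene, had 138.7 in 1M5 and at most 20.5 elsewhere, and Ahsg, which encodes fetuin-A, had 112.7 and at most 26.2. Not all 9 liver genes measured set 1M5 apart from the other 10 rats. Cps1 had 142.8 in 1M5 and up to 196.1 elsewhere, Cyp2c11 had 1217 and up to 1063, and Fga had 207 and up to 190. The urinary protein gene Rup2 stood at 941 in 1M5 and at 0.170 to 34.6 in the others. Alb was brighter than in 1M5 in 8 of the 78 remaining arrays of the series, 1 array per rat. The plot of RNA end ratio, array likeness and albumin signal shows both rats.

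**Figure D1:**
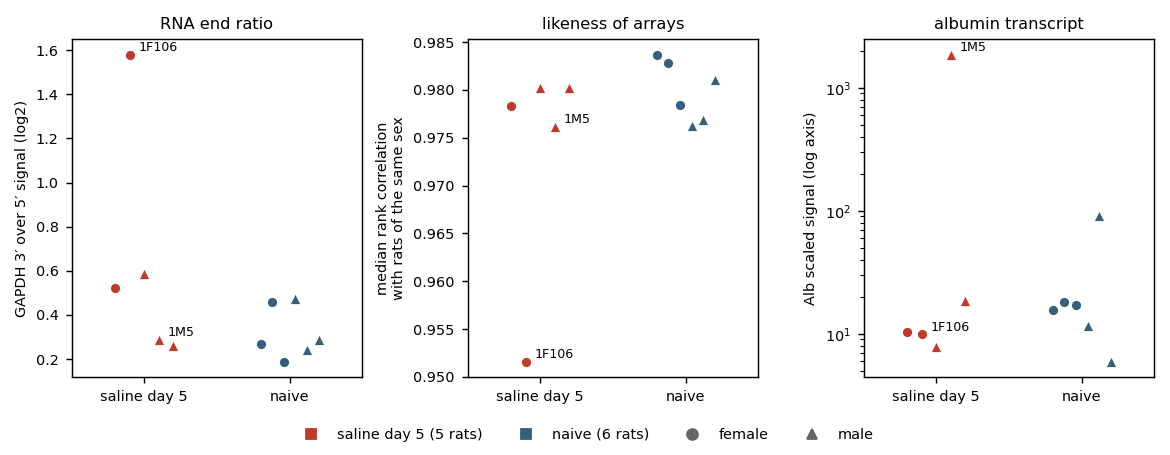
GAPDH 3′ over 5′ log2 ratio, median rank correlation with rats of the same sex, and Alb scaled signal on a log axis, 1 point per rat, with saline day 5 at the left and naive at the right of each panel. Rat 1F106 stands at 1.58 and 0.952 in the first and second panels, and rat 1M5 at an Alb signal of 1855 in the third.

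No gene differed between saline day 5 and naive kidneys past the threshold. Of 11415 genes tested with limma and a sex term, 0 stood higher and 0 lower at a Benjamini-Hochberg adjusted p under 0.05 (0% each), and the smallest adjusted p was 0.613. At an unadjusted p under 0.05 there were 675 genes (5.91%), where 5% of the genes would be 571. Of these, 393 were higher in saline rats (3.44%) and 282 lower (2.47%), a balance that turned to 320 higher and 372 lower when the probe sets of a gene were averaged. The fit that pools the spread of all 89 arrays also called 0 genes, with a smallest adjusted p of 0.0577 and 1063 genes (9.31%) at an unadjusted p under 0.05, 636 higher (5.57%) and 427 lower (3.74%).

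The intervals state how large a difference these rats leave room for. Folds here are on the log2(signal + 16) scale. The 95% interval of the saline minus naive difference lay inside a 2-fold change either way for 11173 genes (97.88% of those tested). It lay inside a 1.5-fold change for 9646 genes (84.5%). For dim genes this scale shrinks the fold of the signal itself, so these counts do not bound that fold. Ky averaged 19.8 in saline rats and 39.5 in naive rats, yet its interval of -0.89 to -0.33 counted as inside 2-fold. Over all genes tested, the median half-width of the interval was 0.28 on the log2 scale, from a median SE of 0.13. The median size of the difference was 0.11, and 8 genes differed by more than 1 log2 unit. After subtracting the naive mean of the same sex, all 5 saline values lay above all 6 naive values in 41 genes (0.359%) and below them in 23 genes (0.201%). The naive sex means come from the naive rats themselves, which draws the naive values together. With 5 against 6 rats, the number of arrays limits the precision.

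**Figure D2:**
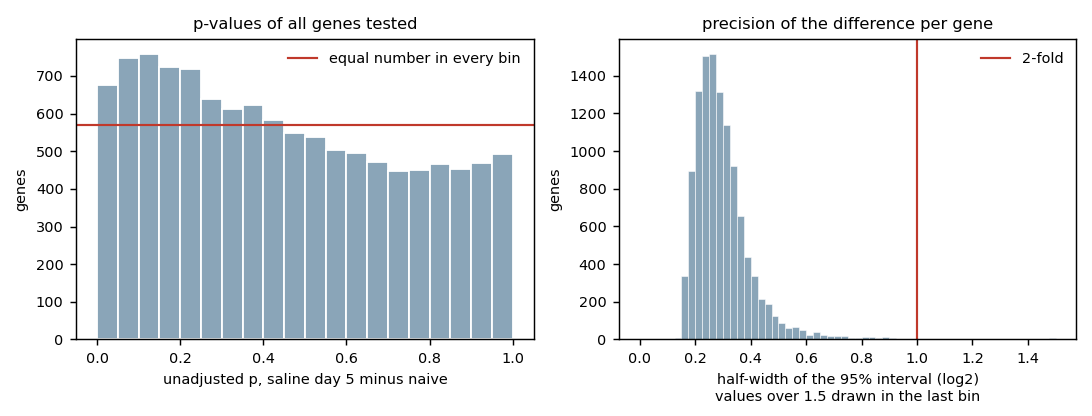
Left, unadjusted p-values of the 11415 genes in 20 equal bins, with a line at the equal number per bin. Right, half-width of each gene's 95% interval on the log2(signal + 16) scale, with a line at a 2-fold change on that scale. The median half-width lies at 0.28, and the first bin of the left panel holds 675 genes.

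The 12 genes with the smallest p on the higher side, each above the naive mean of its sex in 5 of 5 saline rats, did not pass, and their adjusted p ran from 0.613 to 0.780. They are named by that rule and are not a set of genes that changed. Dusp23 encodes a small dual-specificity phosphatase (chromosome 13, 87630245 to 87632400 on GRCr8). Its signal was 112.8 and 192 in the saline females and 176, 162 and 178 in the saline males, against 65.5, 74.6 and 67.9 in the naive females and 58.2, 127 and 40.6 in the naive males. Naive male 8M82 lay above saline female 1F105, and the other 5 naive rats lay below every saline rat. The log2 difference was 1.06 (SE 0.20; adjusted p = 0.613 in limma), with a 95% interval of 0.62 to 1.49. It was the only gene called when the arrays were left unscaled (adjusted p = 0.0147).

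Fetub, which encodes the secreted protease inhibitor fetuin-B (chromosome 11, 91586750 to 91599789), had signals of 209 and 228 in the saline females and 89.4, 131.7 and 108 in the saline males, against 109, 155.8 and 127 in the naive females and 45.8, 80.9 and 50.2 in the naive males. Within each sex every saline rat lay above every naive rat. The log2 difference was 0.73 (SE 0.14; adjusted p = 0.613 in limma). Rbm3, a cold-inducible RNA-binding protein gene (chromosome X, 17020863 to 17024341), measured 1165 and 1534 in the saline females and 1048, 1035 and 1030.0 in the saline males, against 928, 875 and 676 in the naive females and 949.9, 822 and 720.1 in the naive males. All 5 saline rats exceeded the naive rats, and female 1F106 was the highest. Its log2 difference was 0.49 (SE 0.12; adjusted p = 0.780 in limma). Tmigd1, an adhesion protein gene of kidney epithelium (chromosome 10, 62234764 to 62249169), gave 1051 and 1747 in the saline females and 1222, 1089 and 937 in the saline males, against 559, 1058 and 804 in the naive females and 742, 619.6 and 855 in the naive males, and its log2 difference was 0.65 (SE 0.17). Naive female 8F182 reached the level of saline female 1F105.

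Among the rest of the higher side, Tmem35b, a small membrane protein gene, had the largest difference. Its signal was 68.8 and 69.1 in the saline females and 224, 335 and 152 in the saline males, against 31.6, 43.3 and 33.4 in the naive females and 37.6, 138.9 and 28.3 in the naive males. Within each sex the groups did not overlap, but naive male 8M82 was above both saline females and close to saline male 1M6. The log2 difference was 1.29 (SE 0.32). Phf19, a Polycomb-associated protein gene, differed by 0.58, Coch, the cochlin gene, by 0.91, and Pnpla6, a lysophospholipase gene, by 0.73. Nptx1, the neuronal pentraxin gene, had 24.1 to 60.8 in saline rats and 3.96 to 32.3 in naive rats, and since every naive value lay under 33.2 the size of its difference is uncertain. Smim5 differed by 0.66, Cryzl1, a quinone oxidoreductase-like gene, by 0.48, and the photoreceptor flippase gene Abca4 by 0.42. In 9 of the 12 genes the groups did not overlap once sex was removed (0.359% of all genes), a count largely fixed by choosing genes for a small p and 1 sign in all saline rats. Without rats 1M5 and 1F106 the 12 log2 differences were 0.38 to 1.19.

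On the lower side, the 12 genes had adjusted p from 0.613 to 0.780, and none passed. Rtp4, an interferon-induced chaperone of receptors (chromosome 11, 90741992 to 90840061), had signals of 83.8 and 78.2 in the saline females and 117, 84.8 and 148.9 in the saline males, against 111.3, 117 and 127 in the naive females and 178, 269.9 and 207 in the naive males. Within each sex all saline rats lay below all naive rats. The log2 difference was -0.67 (SE 0.14; adjusted p = 0.674 in limma), with a 95% interval of -0.98 to -0.36. Parp14, an interferon-induced ADP-ribosyltransferase (chromosome 11, 78408134 to 78440201), measured 180.2 and 185 in the saline females and 159.5, 172 and 212 in the saline males, against 221, 222 and 256 in the naive females and 297, 235 and 263 in the naive males. Every saline rat lay under every naive rat, and the log2 difference was -0.43 (SE 0.10; adjusted p = 0.780 in limma).

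Gatm encodes the mitochondrial enzyme that begins creatine synthesis, abundant in proximal tubule (chromosome 3, 130112508 to 130137664). Its signal was 4052 and 3727 in the saline females and 4152, 3255 and 4337 in the saline males, against 4547, 5006 and 4049 in the naive females and 5272, 5478 and 5345 in the naive males, lower in every saline male than in any naive male and overlapping in females. The log2 difference was -0.35 (SE 0.10; adjusted p = 0.780 in limma), or -0.27 without 1M5 and 1F106. Nt5e encodes CD73, the surface enzyme that makes adenosine, and its log2 difference was -0.48 (SE 0.12). Clu, the clusterin gene and a marker of tubular injury, measured 850.0 and 799.7 in the saline females and 465, 431 and 543 in the saline males, against 945, 1092 and 989 in the naive females and 658, 574 and 643 in the naive males. Saline rats were low within each sex, with a log2 difference of -0.33 (SE 0.088; adjusted p = 0.780 in limma).

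The remaining genes of the lower side differed by -0.89 to -0.29 on the log2 scale. Colec12 encodes a scavenger receptor of the collectin family (log2 -0.60), Chordc1 a co-chaperone of HSP90 (log2 -0.29) and Cdr2 a cytoplasmic neuronal antigen (log2 -0.36). Ky, named for a muscle peptidase, and the channel gene Hcn3 were dim: Ky had 15.5 to 25.2 in saline rats and 30.8 to 47.3 in naive rats, and Hcn3 had 15.6 to 27.7 in saline rats and 29.5 to 60.04 in naive rats. All saline values of both genes lay under the limit of 33.2, so their differences are uncertain in size. The probe set of Brcc3-ps7 is assigned to a pseudogene, and whether it also reads the parent gene was not tested (log2 -0.89; adjusted p = 0.0264 in limma when 1M5 and 1F106 were left out, the 1 gene called then). Without these 2 rats the 12 log2 differences were -1.19 to -0.23. In 8 of the 12 genes the groups did not overlap once sex was removed (0.201% of all genes), a count that the same choice largely fixes.

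**Figure D3:**
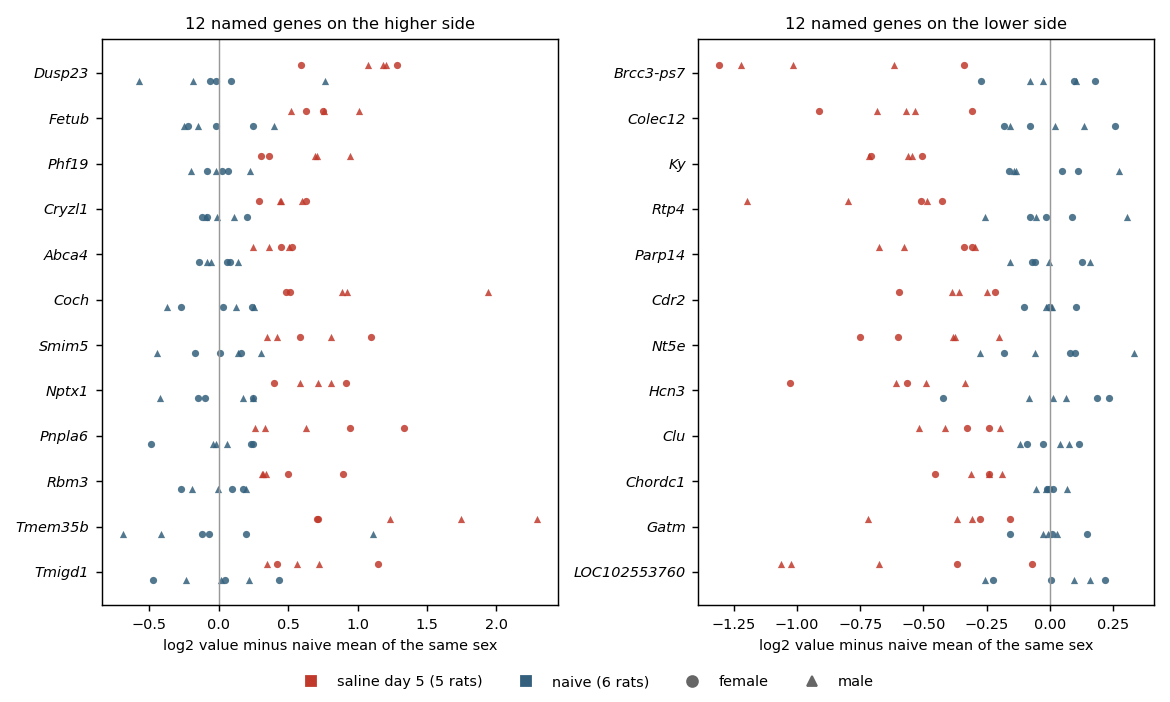
Log2 value of each rat minus the naive mean of its sex for the 12 named genes on the higher side (left) and on the lower side (right), with saline day 5 points above naive points in each row and circles for females and triangles for males. Dusp23 and Tmem35b each have 1 naive male among the saline points, and Rtp4, Parp14 and Clu have none.

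Differences above 1 log2 unit were few and uneven among rats, and the genes in this group other than Dusp23 and Tmem35b were chosen after their values were seen. Fam111a, which encodes a serine peptidase of DNA replication, had the largest at -3.30 (SE 1.03; adjusted p = 0.780 in limma). Its signal was 15.95 and 10.2 in the saline females and 1875, 1342 and 27.1 in the saline males, against 1101, 956 and 937 in the naive females and 1353, 1775 and 2020.0 in the naive males. Saline rats 1F105, 1F106 and 1M6 were near background, under 33.2, and saline rats 1M4 and 1M5 and all 6 naive rats were bright. The size of the difference of -3.30 thus rests in part on the pseudocount and is uncertain. In the series 24 of 89 arrays, from 12 of the 15 groups, lay under 33.2 for this gene. In females alone it was the 1 gene called (adjusted p = 1.59e-05 in limma, 2 saline against 3 naive rats). Both saline females lay under 33.2, so the size of this difference is set by the pseudocount and is not given.

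Acsm3, a medium-chain acyl-CoA synthetase gene, measured 965 and 272 in the saline females and 454, 720.0 and 362 in the saline males, against 553, 1707 and 1329 in the naive females and 1882, 941 and 2671 in the naive males. All saline rats were lower than the naive mean of their sex, and the log2 difference was -1.43 (SE 0.39; adjusted p = 0.780 in limma). Acsm5, a gene of the same family that lies beside it on chromosome 1 (183302241 to 183328175, against 183564652 to 183591328 for Acsm3), had 208 and 18.6 in the saline females and 15.4, 26.8 and 68.7 in the saline males, against 146.2, 202 and 167 in the naive females and 132.6, 86.98 and 123.7 in the naive males, with a log2 difference of -1.27 (SE 0.40), and saline female 1F105 stood above every naive rat. For Acsm5, 3 of the 5 saline values lay under 33.2, so the size of its difference is uncertain. Akr1b8, an aldo-keto reductase gene, differed by -1.28 and the claudin gene Cldn6 by 1.06 (adjusted p = 0.780 and 0.780 in limma). Akr1b8 had 2 saline values and Cldn6 2 naive values under 33.2, so these sizes are uncertain too. Rup2, at 1.01, was bright in 1M5 only, as given above.

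Genes of the acute stress response lay on both sides. As background for every list below, 54.0% of all genes tested were higher in saline rats, the median log2 difference was 0.015, and 3.44% were higher and 2.47% lower at an unadjusted p under 0.05. No member of any list passed. Without 1F106, 52.9% of all genes were higher, and without 1M5 55.3%. Of 23 immediate early genes 13 were higher, with a median of 0.030, and without 1F106, 8 of 23 (median -0.071) were higher. Fos, which encodes a subunit of the AP-1 factor, measured 55.2 and 54.7 in the saline females and 64.4, 77.2 and 52.9 in the saline males, against 73.3, 84.8 and 36.1 in the naive females and 69.9, 62.7 and 75.4 in the naive males, and the groups overlapped throughout (log2 -0.11, 95% interval -0.45 to 0.24). Egr1, a zinc finger factor induced within minutes of a stimulus, had 175 to 414 in saline rats and 163 to 512 in naive rats, with a log2 difference of 0.0043 (95% interval -0.56 to 0.57). Fosl2, another AP-1 subunit, was above the naive mean of its sex in 5 of 5 saline rats (log2 0.58, SE 0.20; adjusted p = 0.780 in limma). The groups overlapped, and naive male 8M82 had a signal of 6.27, against 32.8 to 45.9 in the other males.

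Glucocorticoid-responsive genes were higher for 10 of 21, with a median of -0.056. Without 1F106, 6 of 21 (median -0.11) were higher, and without 1M5, 6 of 21 (median -0.12). Fkbp5, a chaperone of the glucocorticoid receptor that the hormone induces, had 141.8 and 209 in the saline females and 235, 389 and 157.8 in the saline males, against 157.1, 175 and 139.5 in the naive females and 259, 219 and 202 in the naive males. Male 1M5 was the highest of the 11 rats, and the log2 difference was 0.12 with it and -0.041 without it. Tsc22d3, which encodes the mediator GILZ, had 528 to 1116 in saline rats and 657 to 950.1 in naive rats (log2 0.045, 95% interval -0.29 to 0.38). Sgk1, a kinase that activates the epithelial sodium channel, measured 889 and 1129 in the saline females and 807, 2366 and 1066 in the saline males, against 1573, 2039.6 and 1907 in the naive females and 1003, 1693 and 1847 in the naive males. Both saline females were below all naive females, and male 1M5 was the highest rat of all, so that the log2 difference of -0.50 became -0.75 without it. Pdk4, a kinase that shuts off pyruvate dehydrogenase, had the smallest p of the list (log2 -0.49, unadjusted p = 0.0204).

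Adrenergic and cAMP-responsive genes were higher for 3 of 13, with a median of -0.18 and scores of -0.19 to -0.082 in saline rats and -0.10 to 0.087 in naive rats. A list score is the mean over members of the log2 value minus the naive mean of the same sex. Pde4d, a cAMP phosphodiesterase gene, differed by -0.40 and the nuclear receptor gene Nr4a1 by -0.31 (unadjusted p = 0.0231 and 0.0362). Heat shock chaperones were higher for 7 of 18 (median -0.072, and -0.014 without 1F106), and Hspa1a, the inducible HSP70, had 337 to 511 in saline rats and 263 to 625 in naive rats (log2 -0.058, 95% interval -0.35 to 0.24).

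Clock genes spread widely among the rats of each group. Dbp, a clock output factor with a large daily swing, had 415 and 129.1 in the saline females and 228, 179 and 450.4 in the saline males, against 162, 212 and 152 in the naive females and 438, 299.9 and 174 in the naive males. Rats 1F105 and 1M6 among the saline rats, and 8M81 among the naive rats, were high, and the log2 difference was 0.12 (95% interval -0.57 to 0.81). Bmal1, the clock activator in antiphase to it, measured 79.5 and 57.9 in the saline females and 100.3, 123.7 and 78.8 in the saline males, against 166, 86.03 and 125 in the naive females and 78.8, 91.3 and 136 in the naive males, with a log2 difference of -0.32 (SE 0.20). Per1, a clock repressor that glucocorticoids also induce, had 54.3 to 215 in saline rats and 86.9 to 231 in naive rats (log2 -0.12). Of 14 clock output and repressor genes 7 were higher, and of 6 activators and antiphase genes 2 were higher. The output factor gene Hlf differed by 0.32 and the activator gene Rora by -0.31 (unadjusted p = 0.0263 and 0.0957 in limma). Without 1F106, Hlf differed by 0.27, Rora by -0.087 and Bmal1 by -0.18. In males alone and in females alone, Hlf differed by 0.21 and 0.45, Rora by -0.029 and -0.65, and Bmal1 by -0.0022 and -0.71.

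Of 27 genes of the angiotensin and aldosterone axis and of sodium handling, 14 were higher (median 0.022). Ace, the angiotensin-converting enzyme gene (chromosome 10, 91410129 to 91430246), measured 101.9 and 118 in the saline females and 122.2, 115.3 and 139.3 in the saline males, against 113.9, 77.7 and 111.6 in the naive females and 100.97, 50.3 and 62.98 in the naive males, higher in 5 of 5 saline rats than the naive mean of their sex (log2 0.46, SE 0.17; adjusted p = 0.780 in limma). Naive females 8F181 and 8F183 lay among the saline rats. Agt, the angiotensinogen gene, was brighter in the males of both groups and had 39.9 and 69.8 in the saline females and 386, 244 and 206 in the saline males, against 39.8, 29.3 and 33.9 in the naive females and 265, 238 and 250.2 in the naive males (log2 0.26, 95% interval -0.092 to 0.61). Enpep, which degrades angiotensin II, and the receptor gene Agtr1b differed by -0.24 and -0.37 (unadjusted p = 0.0212 and 0.0305). The sodium channel subunits Scnn1a, Scnn1b and Scnn1g differed by 0.093, -0.025 and -0.20.

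Of 16 water handling and osmotic genes, 11 were higher (median 0.15), and 4 had an unadjusted p under 0.05, all on the higher side, where the share of all genes was 3.44%. Aqp2, the vasopressin-regulated water channel (chromosome 7, 132590286 to 132595321), measured 3049.7 and 4457 in the saline females and 3174, 3118 and 2386 in the saline males, against 2576, 2788 and 3094 in the naive females and 2938, 2216 and 2142 in the naive males. Female 1F106 was the highest of the 11 rats, and the groups overlapped (log2 0.31, SE 0.12; adjusted p = 0.780 in limma; 0.21 without 1F106). Slc5a3, the myo-inositol transporter induced by hypertonicity, differed by 0.31, Bsnd, a chloride channel subunit, by 0.34 and the urea transporter gene Slc14a2 by 0.37. The list median was 0.21 in males alone and -0.089 in females alone.

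In bulk tissue such as this, fewer cells of a type and less RNA per cell cannot be told apart. Collecting duct genes were higher for 17 of 20, with a median of 0.16, and 18 of 20 were higher without 1M5 and 1F106. Rhcg, an ammonia transporter of intercalated cells (chromosome 1, 142941046 to 142965242), measured 729 and 911 in the saline females and 685, 623 and 523 in the saline males, against 462, 497 and 404 in the naive females and 714, 478 and 538 in the naive males (log2 0.42, SE 0.15; adjusted p = 0.780 in limma). All 3 naive females were below both saline females, and naive male 8M81 was above all 3 saline males. Atp6v1g3, a proton pump subunit, differed by 0.36, and Foxi1, the intercalated cell factor, by 0.27. Scores of the list ran from 0.0058 to 0.27 in saline rats and -0.30 to 0.35 in naive rats, so the naive range enclosed the saline range. Of 17 loop of Henle and distal tubule genes 11 were higher (median 0.039).

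Proximal tubule transporters were higher for 6 of 31 and lower for 25, with a median of -0.17. Slc5a1, the sodium-glucose cotransporter of the late proximal tubule, measured 97.5 and 31.7 in the saline females and 78.6, 71.98 and 107 in the saline males, against 153, 91.4 and 117 in the naive females and 62.9, 144 and 169 in the naive males (log2 -0.61, SE 0.26; adjusted p = 0.780 in limma). Saline female 1F106 was the lowest rat, and naive male 8M81 lay below all saline males. Slc4a4, the basolateral bicarbonate cotransporter, had 1131 and 1075 in the saline females and 1599, 1806 and 3353 in the saline males, against 2735, 2445 and 3066 in the naive females and 1186, 3019 and 2987 in the naive males. Saline male 1M6 was the highest of the 11 rats, naive male 8M81 lay below all saline males, and the log2 difference was -0.60 (SE 0.30). The endocytic receptor gene Lrp2 and the phosphate transporter gene Slc34a1 differed by -0.023 and -0.042. Scores of the transporter list ran from -0.46 to 0.16 in saline rats and -0.31 to 0.18 in naive rats, and these naive extremes were males 8M81 and 8M82, at -0.31 and 0.18. The same 2 rats stood at 0.35 and -0.30 on the collecting duct score. Of 26 proximal tubule enzymes and brush border genes 9 were higher and 17 lower, and 4 of 26 (median -0.12) were higher without 1F106. At an unadjusted p under 0.05 there were 5 on the lower side (2.47% of all genes), among them Gatm, Hao2 (log2 -0.26) and Agxt2 (log2 -0.36), and 1 on the higher side (3.44% of all genes), Ace.

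**Figure D4:**
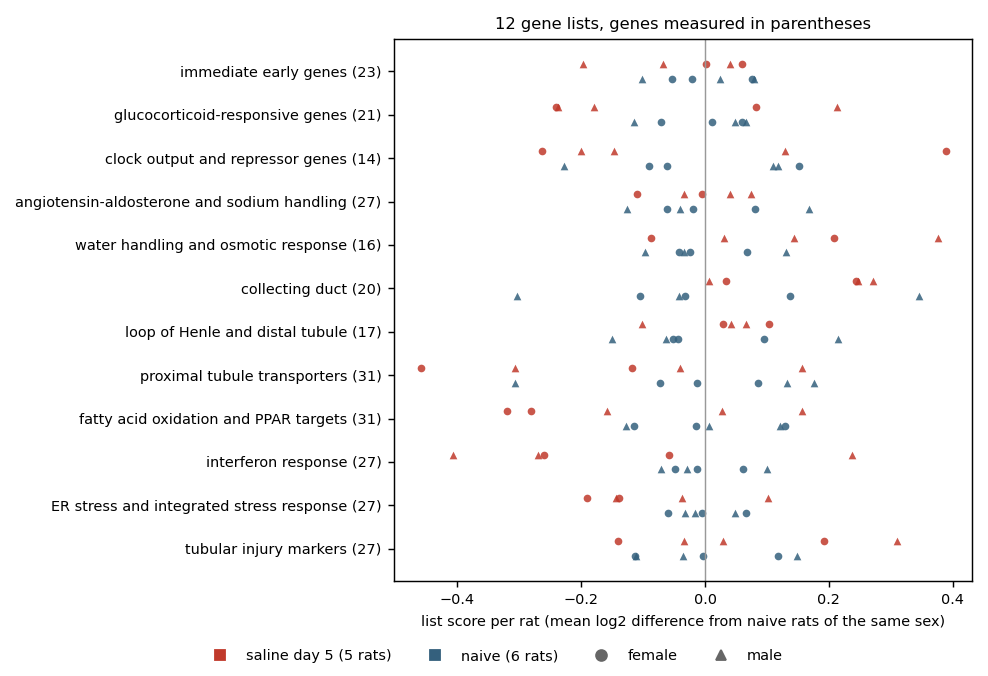
Score of each rat for 12 gene lists, the mean over measured members of the log2 value minus the naive mean of the same sex, with saline day 5 points above naive points, circles for females and triangles for males. The groups overlap on every list shown, and the saline range of the interferon list (-0.41 to 0.24) is wider than its naive range (-0.071 to 0.10).

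Genes of fatty acid oxidation and targets of the PPAR receptors, which the kidney uses to burn fat in proximal tubule, were lower for 22 of 31 (median -0.12), and 5 had an unadjusted p under 0.05, all on the lower side, where the share of all genes was 2.47%. Cyp4a3, a fatty acid hydroxylase that PPARα induces (chromosome 5, 134334396 to 134352268), measured 3601 and 3889 in the saline females and 5384, 6168 and 6236 in the saline males, against 5857, 4438 and 6506 in the naive females and 6512, 6427 and 7611 in the naive males. Within each sex all saline rats lay below all naive rats (log2 -0.36, SE 0.11; adjusted p = 0.780 in limma). Pdk4 had 597 and 623 in the saline females and 252, 667 and 404 in the saline males, against 1069, 865 and 1116 in the naive females and 502, 470.2 and 573 in the naive males. Saline females lay below all naive females, and male 1M5 above all naive males (log2 -0.49, SE 0.19; -0.71 in females and -0.32 in males). Ucp3, Angptl4 and Acot2 differed by -0.48, -0.40 and -0.21. The list median was -0.24 in females alone, 0.061 in males alone and -0.036 without 1M5 and 1F106. Oxidative phosphorylation genes were higher for 23 of 45 and cytosolic ribosomal protein genes for 20 of 38, with medians of 0.00011 and 0.0030. Without 1F106, 9 of 45 (median -0.034) and 6 of 38 (median -0.075) were higher, and without both 1M5 and 1F106, 8 of 45 and 3 of 38.

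Interferon response genes, which type I interferon switches on through elements of the form GAAANNGAAA, were lower for 20 of 27, with a median of -0.16. Besides Rtp4, unadjusted p was under 0.05 for Oas1a, which encodes an RNA-sensing oligoadenylate synthetase, and for Mx1, an antiviral GTPase. Oas1a measured 50.4 and 55.02 in the saline females and 33.03, 23.5 and 49.9 in the saline males, against 54.3, 71.1 and 70.9 in the naive females and 61.5, 56.2 and 54.3 in the naive males (log2 -0.41, SE 0.14; adjusted p = 0.780 in limma). Saline males 1M4 and 1M5 were the lowest of the 11 rats, and both lay under 33.2, so the size of the Oas1a difference is uncertain. Mx1 had 105.3 and 66.8 in the saline females and 64.3, 80.4 and 136 in the saline males, against 109.97, 159.001 and 145 in the naive females and 112.4, 112.1 and 96.2 in the naive males (log2 -0.39), and the RNA sensor gene Ifih1 had 27.1 and 20.2 in the saline females and 21.8, 29.3 and 60.8 in the saline males, against 51.7, 40.03 and 45.4 in the naive females and 33.6, 41.9 and 40.03 in the naive males (log2 -0.34). In these 2 genes male 1M6 was the highest of the males, and the other 4 saline rats were below the naive rats of their sex. For Ifih1 those 4 saline values lay under 33.2, so the size of its difference is uncertain. Isg15, the ubiquitin-like antiviral protein gene, had 79.6 to 156.4 in saline rats and 103.2 to 196 in naive rats (log2 -0.25, 95% interval -0.58 to 0.086). List scores ran from -0.41 to 0.24 in saline rats and -0.071 to 0.10 in naive rats. Saline rats 1M4, 1M5 and 1F106 stood at -0.41, -0.27 and -0.26, below every naive rat, and 1M6 stood at 0.24, above every naive rat. Without 1M5 and 1F106 the median was -0.068.

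The promoters below are shown because these genes share the element, and direction was not part of the choice. They are the 3 measured members with the smallest p that hold it within the last 100 bases before the gene start, from RefSeq on GRCr8, 5′ to 3′ on the gene's strand. Capitals mark GAAANNGAAA, which was searched on both strands; in Oas1a 2 overlapping copies form 1 run.
Oas1a (chr12:41330366-41330465, plus strand): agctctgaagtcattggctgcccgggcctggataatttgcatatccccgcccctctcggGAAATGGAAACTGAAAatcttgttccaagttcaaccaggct
Ifih1 (chr3:67683969-67684068, minus strand): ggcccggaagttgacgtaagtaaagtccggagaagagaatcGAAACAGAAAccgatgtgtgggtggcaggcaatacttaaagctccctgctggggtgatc
Irgm (chr10:33742579-33742678, minus strand): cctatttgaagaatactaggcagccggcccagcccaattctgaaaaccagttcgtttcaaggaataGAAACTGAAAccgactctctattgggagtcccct
In these promoters the element begins 41 bases before the start of Oas1a, 59 before that of Ifih1 and 34 before that of Irgm. Of the 27 measured members 19 had a promoter in the table, and 13 of those held the element in the 250 bases before to 50 after the start. Of those 13, Bst2, Rsad2 and Igtp were on the higher side (log2 0.025, 0.045 and 0.00071) and the others on the lower side. Of all 33469 promoters in RefSeq's set, 1312 held it (3.92%). Such a match describes the letters in the window and does not show a bound site. Irgm, an interferon-induced GTPase gene, had 44.5 to 95.9 in saline rats and 60.1 to 94.1 in naive rats (log2 -0.24).

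Genes of the unfolded protein and integrated stress responses were lower for 21 of 27 (median -0.12). Xbp1, a factor whose spliced form raises chaperones of the ER, measured 1458 and 1273 in the saline females and 1466, 1350.2 and 1365 in the saline males, against 1848, 1842 and 1731 in the naive females and 1572, 1328 and 1503 in the naive males (log2 -0.22, SE 0.090; adjusted p = 0.780 in limma). Both saline females lay well below the naive females, and the males overlapped.  Dnajb9 and Hyou1, chaperones of the ER, differed by -0.34 and -0.34. The list median went to -0.047 without female 1F106, and 21 of 27 genes were still lower. Without both 1M5 and 1F106, 16 of 27 were lower (median -0.047).

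Tubular injury markers were higher for 17 of 27 (median 0.11). Without 1F106, 21 of 27 (median 0.16) were higher, and without both 1M5 and 1F106, 18 of 27 (median 0.11). The median was 0.036 without 1M5, -0.0055 in females alone and 0.090 in males alone. Havcr1, which encodes the injury protein KIM-1, had 46.3 and 26.9 in the saline females and 13.9, 28.1 and 35.1 in the saline males, against 32.95, 20.9 and 14.2 in the naive females and 27.9, 18.7 and 16.6 in the naive males. Saline rats 1F105 and 1M6 lay over the limit of 33.2, and the other 9 rats lay under it (log2 0.28, 95% interval -0.13 to 0.69). Lcn2, the gene of the injury protein NGAL, had 49.8 to 86.6 in saline rats and 31.04 to 83.4 in naive rats (log2 0.31, 95% interval -0.17 to 0.79). Hmox1, the heme oxygenase gene, had 18.2 to 36.8 in saline rats and 24.9 to 44.2 in naive rats (log2 -0.11). Mt2A, a metallothionein gene, had 2523 and 3738 in the saline females and 3987, 4092 and 3527 in the saline males, against 3811, 3394 and 3926 in the naive females and 2686, 4385 and 3854 in the naive males (log2 -0.056, 95% interval -0.35 to 0.24). Inflammatory cytokine and adhesion genes were higher for 7 of 18, macrophage and granulocyte genes for 6 of 19 and p53 targets for 4 of 16. Nrf2 antioxidant targets were higher for 7 of 18 and metal response genes for 4 of 10. Without 1F106 the cytokine count was 11 of 18 (median 0.020), and without 1M5 the Nrf2 count was 11 of 18 (median 0.021). Without both rats, 12 of 19 macrophage and granulocyte genes (median 0.021) were higher.

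Markers of blood, fat and liver differed among rats. Hbb, the haemoglobin gene that marks red blood cells, had 4345 and 5062 in the saline females and 5664, 4653 and 4967 in the saline males, against 5508, 5367 and 5334 in the naive females and 5346, 7603 and 6824 in the naive males (log2 -0.29, SE 0.10; adjusted p = 0.780 in limma). Alas2, the heme synthesis gene of red cell precursors, had 126 to 202 in saline rats and 149.2 to 331 in naive rats (log2 -0.47, SE 0.15). These 2 red cell markers summed to 4471 to 5866 in saline rats and 5483 to 7876 in naive rats. Of 5 red blood cell genes measured, 2 were higher and 3 lower (median -0.29), and the median was 0.046 in females alone and -0.36 in males alone. Fat markers Adipoq, Cfd and Plin1 summed to 118 to 752 in saline rats and 85.9 to 609 in naive rats. Of 11 adipocyte genes 6 were higher, with scores of -0.66 to 0.55 in saline rats and -0.81 to 0.81 in naive rats, and the list median of 0.087 was -0.083 without 1F106. Of 9 liver genes 6 were higher with a median of 0.42, and -0.047 without 1M5. Lymphocyte marker Cd3e lay under the limit in all 11 rats. The part of admixed tissue in the gene lists above was not tested beyond leaving out 1M5 and 1F106. For RNA quality, a limma fit with the GAPDH ratio as a covariate also called 0 genes, and 49.5% of all genes were higher. In that fit 15 of 31 fatty acid oxidation genes (median -0.024) and 4 of 38 cytosolic ribosomal protein genes (median -0.11) were higher. Collecting duct genes stayed at 17 of 20 (median 0.16), and 6 of 27 interferon genes (median -0.081) were higher. Beyond these fits the part of RNA quality was not tested.

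The remaining cell types and processes are given by their counts. Matrix and fibroblast genes were higher for 7 of 28 (median -0.12), and the median was -0.32 in males alone and 0.18 in females alone. The elastic fibre gene Fbln5 had the smallest p of that list (log2 -0.31, unadjusted p = 0.0160). Endothelial genes were higher for 10 of 16, and Pecam1, which encodes the endothelial adhesion molecule CD31, had 309.6 to 489 in saline rats and 224 to 440.4 in naive rats (log2 0.35, SE 0.10; adjusted p = 0.780 in limma). Podocyte genes were higher for 4 of 11, with Clic5, a cytoskeletal protein gene of foot processes, at a log2 difference of -0.30. Hypoxia and glycolysis genes were higher for 6 of 20, with the lactate dehydrogenase gene Ldha at -0.22. Sterol and fatty acid synthesis genes were higher for 16 of 26, lysosomal genes for 13 of 26 and cell cycle genes for 15 of 31. Antigen presentation genes were higher for 6 of 19, complement and acute phase genes for 6 of 15 and lymphocyte genes for 6 of 9. Without 1F106, 4 of 26 lysosomal genes (median -0.067), 7 of 11 podocyte genes (median 0.064) and 4 of 9 lymphocyte genes (median -0.024) were higher. Without 1M5, 12 of 28 matrix genes (median -0.053) and 10 of 19 antigen presentation genes (median 0.010) were higher. Over the 37 lists with a score, 0 had group ranges that did not overlap.

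The saline minus naive difference was also compared between the sexes. No gene passed the test of the interaction of group and sex (0 of 11415 in each direction, 0%; smallest adjusted p = 0.474 in limma), and 1059 (9.28%) had an unadjusted p under 0.05, of which 473 (4.14%) were higher and 586 (5.13%) lower in males relative to females. The genes with the smallest p were Dpyd, which encodes the enzyme that breaks down uracil and thymine, and Pzp, an alpha-2-macroglobulin family inhibitor. Dpyd differed by 0.23 in males and -1.35 in females, and Pzp by 0.20 in males and -1.49 in females (unadjusted p = 0.000200 and 0.000217). Drg1, Rab9a and Kdelr2 followed on the same side, with male minus female differences of 1.69, 1.04 and 0.75. Ccdc77, Csnk2a1, Pa2g4, Otud4 and Fhip2a were on the other side, at -1.67, -0.86, -1.33, -0.79 and -0.95. The female arm holds 2 saline rats, of which 1 is 1F106.

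Rats given saline for 1 day are set beside these values. Among these 7 rats, 1M2 carries a treatment text of 5 days and 1F104 carries none, and both were kept at day 1 by title. Saline day 1 against naive gave 0 genes at an adjusted p under 0.05 (0% in each direction) and 929 (8.14%) at an unadjusted p under 0.05 in limma, 495 higher (4.34%) and 434 lower (3.80%). The day 1 and day 5 comparisons share the 6 naive rats, so likeness between them is not evidence from separate animals. Rtp4 differed from naive by -0.67 at day 5 and -0.66 at day 1, Parp14 by -0.43 and -0.37, Ky by -0.61 and -0.56, and Gatm by -0.35 and -0.51. Dusp23 differed by 1.06 at day 5 and 0.28 at day 1, and Tmem35b by 1.29 and -0.013. Hcn3 differed by -0.62 and -0.20.

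Day 5 was tested against day 1 directly, on 5 and 7 rats. No gene passed (0% in each direction; smallest adjusted p = 0.798 in limma), and 515 (4.51%) had an unadjusted p under 0.05, 288 higher (2.52%) and 227 lower (1.99%). For Dusp23 the difference was 0.71 (95% interval 0.28 to 1.14), and for Rtp4 it was 0.045 (95% interval -0.26 to 0.35). The genes with the smallest p were Col16a1, a collagen gene, with a signal of 139.1 ± 16.4 at day 5 and 103.96 ± 12.8 at day 1, and Cyp26b1, which degrades retinoic acid, with 246 ± 49.5 and 146.3 ± 33.3 (SD, n = 5 and 7). Rnf182, Fabp3 and Nrip3 followed with log2 differences of 0.54, 0.33 and 0.81. On the other side were Cdr2, Odc1, Bmal1, Dpp4 and Chd1l, at -0.45, -0.42, -0.54, -0.28 and -0.44.

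The levels in the other 13 groups of the series set the saline and naive levels in context. Group means weight both sexes equally, and they are given without a test, since the genes were chosen for their difference between these 2 groups. Gatm averaged 11.93 in saline day 5 rats and 12.27 in naive rats on the log2 scale, and the 13 others ran from 11.23 to 12.06, all nearer the saline level. The same held for Pdk4, Cyp4a3 and Alas2, with naive the highest of the 15 groups in each. Over all genes tested, all 13 groups lay nearer saline day 5 in 3.92% and nearer naive in 6.44%. For Tmigd1, Ky and Chordc1, 12 of 13 groups were nearer saline day 5. For Dusp23, Hcn3 and Clu the reverse held, with 12 of 13 nearer naive. Dusp23 averaged 7.45 in saline day 5 rats and 6.41 in naive rats, and the others reached at most 6.94. Of the 24 genes named on the higher and lower sides, most groups lay nearer saline day 5 in 14 and nearer naive in 10. Over all genes tested these shares were 46.7% and 53.3%.

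Of the 12 named genes on the higher side naive was the lowest of the 15 groups in 8 and saline day 5 the highest in 6. On the lower side naive was the highest in 8 and saline day 5 the lowest in 4. Over all genes naive was the lowest group in 11.3% and the highest in 6.85%, and saline day 5 was the highest in 11.8% and the lowest in 12.3%. Choosing genes for a small p between these 2 groups itself moves them to the ends, so the counts are not set against these shares as an excess. For Rtp4, with saline day 5 at 6.81 and naive at 7.46, the other groups ran from 6.39 to 7.85.

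**Figure D5:**
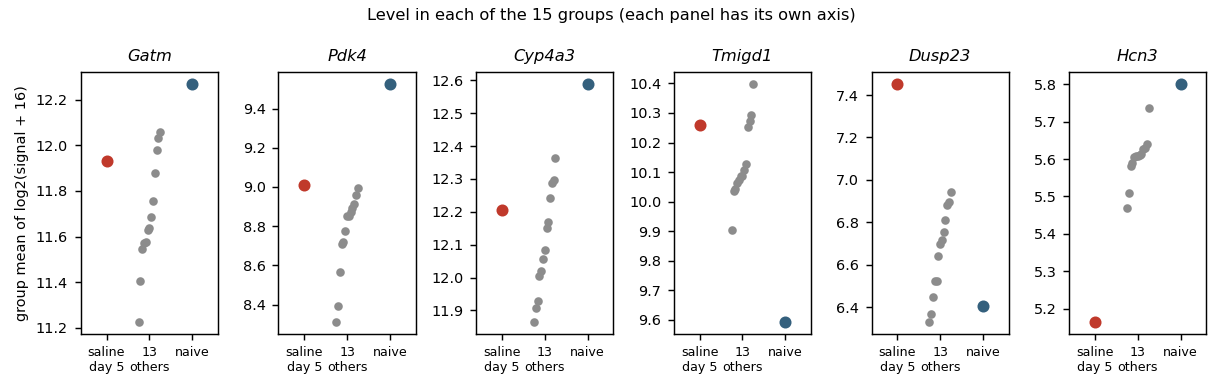
Group mean of log2(signal + 16), both sexes weighted equally, for 6 genes in saline day 5 rats, in the 13 other groups (grey, sorted low to high) and in naive rats, each panel with its own axis. Naive lies above every other group for Gatm, Pdk4 and Cyp4a3 and below every other group for Tmigd1, while saline day 5 lies above the rest for Dusp23 and below the rest for Hcn3.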

How the data were processed

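The authors deposited 1 linear intensity per probe set and array, made with MAS5 per the submitters' processing notes. Neither the software version nor a scaling target is given in the sources used here, and detection calls were not used here. Of 31099 probe sets, 57 controls, 436 assigned to more than 1 gene symbol and 9780 without a symbol were left out, and each of 14217 genes was read from its probe set with the highest mean. Each array was scaled to a common 2% trimmed mean of 181 (91.5 to 352 before scaling over the 89 arrays, 116 to 214 over these 11), and values were taken as log2(signal + 16). Genes were tested where at least 5 of 89 arrays exceeded the 40th percentile (33.2), which left 11415.

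Groups came from the titles. The main test was limma 3.58.1 in R 4.3.3 (package data.table, version 1.17.8), with lmFit, a sex term and eBayes with trend and robust, on the 11 arrays, with Benjamini-Hochberg adjustment and 0.05 as the limit. The procedure was tested on simulated data. p-values measure the spread between these rats. A rule chose the genes named: on each side the 12 with the smallest p and the same sign in all saline rats (no gene passed), the smallest p of each list described, a fixed set of stress, fluid and injury genes, and the 5 smallest p on either side of the sex interaction and of day 5 minus day 1. Any other gene was picked with its values in view. The members and lists were chosen with earlier results of these data known. The fits of males alone and of females alone and the one without 1M5 and 1F106 were added after seeing the data. Promoters and gene positions are RefSeq's on GRCr8. Python 3.11.15 with matplotlib 3.10.9 drew the figures.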

Additional observations from a re-analysis of the deposited data

Results flagged for a closer look

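In 3 measures 1 saline rat lay far from the other saline rats, where chance over all the group values checked gives about 8. Female 1F105 had a low Mt2A, at -0.55 on the log2 scale against the naive mean of its sex, with the other 4 saline rats at -0.016 to 0.20. Male 1M5 had a liver list score of 1.99, with the other 4 at -0.28 to -0.024. Female 1F106 had a GAPDH 3′ over 5′ log2 ratio of 1.58, with the other 4 at 0.26 to 0.59.

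In 6 of 37 lists every saline male lay on one side of the naive level and every saline female on the other, and this difference between the sexes was not tested. The scores of saline males and saline females averaged -0.31 and 0.17 for fibroblasts and extracellular matrix (difference -0.48) and -0.35 and 0.082 for red blood cells (difference -0.43). They averaged -0.096 and 0.12 for cell cycle genes (difference -0.21), 0.15 and -0.14 for the adrenal cortex list (difference 0.29), 0.047 and -0.13 for metallothionein and metal response (difference 0.18) and 0.039 and -0.054 for Nrf2 targets (difference 0.093). The same opposed pattern held for 1217 single genes (10.7%). The female means rest on 2 rats, and the defining adrenal markers lay under 33.2 in all 11 rats.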

How the results depend on the processing

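The count of genes past the adjusted limit stayed 0 under 28 of 31 other settings, among them leaving out each rat in turn (0 throughout). It was 1 with unscaled arrays (Dusp23), 1 without 1M5 and 1F106 (Brcc3-ps7) and 1 in females only (Fam111a), and the cause was not tested. At an unadjusted p under 0.05 the count of 675 became 201 unscaled, 1388 over all probe sets singly, 1063 with all 89 arrays, 351 without a sex term, 383 in males only and 1549 in females only, and 1050 without 1M6, 438 without 8F183 and 1422 without 8M81. The balance of 393 higher and 282 lower genes turned to 320 and 372 with the mean of a gene's probe sets, 639 and 749 over all probe sets singly, 173 and 178 without a sex term and 178 and 205 in males only. The brightness difference, 0.043 on the log2 scale, was -0.027 by the plain median and -0.042 to 0.18 leaving out 1 rat. It turned negative without 1F105, 1M4 or 8M82. The GAPDH difference of 0.33 was 0.095 to 0.43 leaving out 1 rat, lowest without 1F106, and its exact p was 0.0333 without 1M5 and 0.0238 without 1M6. Counting 1M2 or 1F104 as day 5 against their titles left 0 genes called. No paired analysis was possible because no animal code occurs in both groups. Without detection calls, signal over background is known only through the limit of 33.2, which bears on dim genes such as Ky, Hcn3 and Havcr1.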

Other observations

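Rat 1F106 was low for Kl, the klotho gene of the distal tubule, with a signal of 3.46 against 105.8 to 157.4 in the other females, a gene chosen after its values were seen. Low Fam111a signals, under 33.2, occurred in 9 females and 15 males of the 89 rats, and low Acsm5 signals in 10 females and 17 males.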
